A study of Mus musculus with 12 samples.

Results

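The 10 genes Nfe2l2, Keap1, Gclc, Gclm, Slc7a11, Txnrd1, Srxn1, Hmox1, Nqo1 and Osgin1, known for the Nrf2 response to oxidative stress, were read out from spinal cord RNA of mice that carried the ALS-linked SOD1-G93A transgene, lacked Plekhg5, or both. They were chosen by symbol as 10 of the 45906 genes in the count table, and 10 of 10 passed the filter on low counts among the 20155 genes tested.

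Nrf2, the protein that Nfe2l2 encodes, is a transcription factor that Keap1 holds in the cytoplasm and passes on to a cullin 3 ubiquitin ligase for degradation. Oxidants and electrophiles modify cysteines of Keap1, after which newly made Nrf2 reaches the nucleus, pairs with small Maf proteins and binds the antioxidant response element in the promoters and enhancers of genes that make glutathione, reduce thioredoxin and peroxiredoxins, and clear heme and quinones. In spinal cord this response is best known from astrocytes, and Hmox1 is in addition used by macrophages and microglia that take up heme.

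RNA was taken from whole spinal cord of mice aged 7 months, kept on a C57BL/6 background, with 3 mice in each of 4 genotypes. Plekhg5+/+ mice had both wild-type Plekhg5 alleles and no transgene, and Plekhg5-/- mice lacked Plekhg5, a gene for a guanine nucleotide exchange factor that acts in autophagy of motoneurons. The genotypes Plekhg5+/+ SOD1-G93A and Plekhg5-/- SOD1-G93A carried the low copy human transgene of the mutated superoxide dismutase, a slowly progressing model of ALS, with and without Plekhg5. The study asked how loss of Plekhg5 alters the transcriptome of SOD1-G93A spinal cord, so Plekhg5+/+ SOD1-G93A was compared with Plekhg5+/+ and Plekhg5-/- SOD1-G93A with Plekhg5+/+ SOD1-G93A.

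The 12 libraries held 30415643 to 38743628 counts. Values are counts per 1000000 counts of the library (CPM), with library sizes normalised by TMM, and differences were tested with edgeR's quasi-likelihood test and Benjamini-Hochberg adjustment over all genes tested. A gene was called where its adjusted p was under 0.05. Plekhg5 lay between 19.4 and 24.96 CPM in the 6 libraries with Plekhg5+/+ and between 3.28 and 4.72 CPM in those with Plekhg5-/-. Human SOD1 lay between 4421 and 5638 CPM with the transgene, and at most at 5.47 CPM without it. Transcripts of Y-linked genes were present in 3 Plekhg5+/+, 2 Plekhg5-/-, 2 Plekhg5+/+ SOD1-G93A and 1 Plekhg5-/- SOD1-G93A libraries, so sexes were not balanced between the genotypes. Plekhg5+/+ SOD1-G93A replicate 1 stood apart from the other 2 mice of its genotype in several values below. For Hmox1, Nfe2l2, Ftl1 and Prdx6 the fold changes in Plekhg5+/+ SOD1-G93A against Plekhg5+/+ are given with and without it. Correlations, and medians and sign counts over the genes of the pathway, are given only with it.

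The antioxidant response element was searched as the core TGACNNNGC, and other forms of the element were not searched. The window from 250 bases before to 50 bases after each start site was available for 8 of the 10 genes in RefSeq sequence of build GRCm38.p6, as 10 windows, since Txnrd1 has several start sites. Hmox1 and Gclc had no window in that set. A window need not lie at the outer end of its gene. Those of Osgin1 (chr8:119436897-119437196) and Slc7a11 (chr3:50443564-50443863) lay inside the gene spans given below, as did the Txnrd1 window shown. Other start sites of these genes were not searched where they had no window. The core, searched on both strands, was present in 4 of these 10 windows, in the genes Nfe2l2, Gclm, Txnrd1 and Srxn1, and in 12.4% of all 32851 promoter windows. The AP-1 motif TGACTCA was present in 2 of the 10 windows and in 5.2% of all windows, with 2 matches in Srxn1 and 1 in Osgin1. These overlapped none of the matches to TGACNNNGC. With the letters beside them, the Osgin1 match and the Srxn1 match at -45 to -39 read TGAGTCAGC on 1 strand. That differs from the core in 1 letter, so the AP-1 matches are not shown to be separate from other forms of the element. The 4 windows with the core are shown because they hold letters that match it, in capitals. Whether Nrf2 binds these matches was not tested. A core on the opposite strand appears as its reverse complement.
Nfe2l2, chr2:75704614-75704913, minus strand: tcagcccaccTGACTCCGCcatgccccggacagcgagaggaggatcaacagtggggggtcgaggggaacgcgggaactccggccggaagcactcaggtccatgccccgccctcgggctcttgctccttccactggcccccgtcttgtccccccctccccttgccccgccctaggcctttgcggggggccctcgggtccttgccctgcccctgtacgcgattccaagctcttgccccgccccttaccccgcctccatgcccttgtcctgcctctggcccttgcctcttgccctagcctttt
Gclm, chr3:122245307-122245606, plus strand: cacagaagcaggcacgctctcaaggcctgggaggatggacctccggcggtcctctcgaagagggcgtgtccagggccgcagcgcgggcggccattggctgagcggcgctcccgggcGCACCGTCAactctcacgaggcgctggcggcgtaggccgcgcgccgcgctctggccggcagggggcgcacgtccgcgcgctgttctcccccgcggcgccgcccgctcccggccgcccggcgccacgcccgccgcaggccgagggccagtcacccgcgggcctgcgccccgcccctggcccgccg
Txnrd1, chr10:82858956-82859255, plus strand: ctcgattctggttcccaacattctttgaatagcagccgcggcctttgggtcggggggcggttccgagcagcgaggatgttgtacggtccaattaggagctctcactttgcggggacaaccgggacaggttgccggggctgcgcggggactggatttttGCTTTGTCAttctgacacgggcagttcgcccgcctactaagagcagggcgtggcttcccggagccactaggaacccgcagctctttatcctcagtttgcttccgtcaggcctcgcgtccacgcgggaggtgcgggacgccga
Srxn1, chr2:152105274-152105573, plus strand: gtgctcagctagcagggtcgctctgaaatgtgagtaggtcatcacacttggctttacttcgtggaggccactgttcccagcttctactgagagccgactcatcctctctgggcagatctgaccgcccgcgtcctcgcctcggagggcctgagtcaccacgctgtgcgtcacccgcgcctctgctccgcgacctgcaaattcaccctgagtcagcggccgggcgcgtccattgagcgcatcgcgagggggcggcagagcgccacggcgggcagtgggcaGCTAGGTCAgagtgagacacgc

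Counted from the start site, with negative positions before it, the core lay at -240 to -232 in Nfe2l2, at -134 to -126 in Gclm, at -92 to -84 in Txnrd1 and at 28 to 36 in Srxn1. In Nfe2l2 it reads along the strand printed, which runs in the direction of transcription, and in the other windows on the opposite strand. These matches are a description of the letters, and a window without a match lacks only these letters in this stretch.

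The 10 genes differed widely in level. Per kilobase of exon, the mean over the 12 libraries was 48.0 CPM for Srxn1, 28.2 CPM for Gclm, 22.4 CPM for Txnrd1, 18.5 CPM for Gclc and 13.1 CPM for Keap1. It was 10.03 CPM for Nfe2l2, 7.74 CPM for Nqo1, 5.79 CPM for Hmox1, 2.94 CPM for Slc7a11 and 0.336 CPM for Osgin1. The ranges over the libraries did not overlap between neighbours from Srxn1 down to Keap1, whereas those of Keap1 and Nfe2l2, of Nfe2l2 and Nqo1, of Nqo1 and Hmox1, and of Hmox1 and Slc7a11 overlapped. Osgin1 lay below all of them in every library. Srxn1, the most abundant, had more counts than 92.0% of the genes tested, and Osgin1 more than 16.1%.

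**Figure D1:**
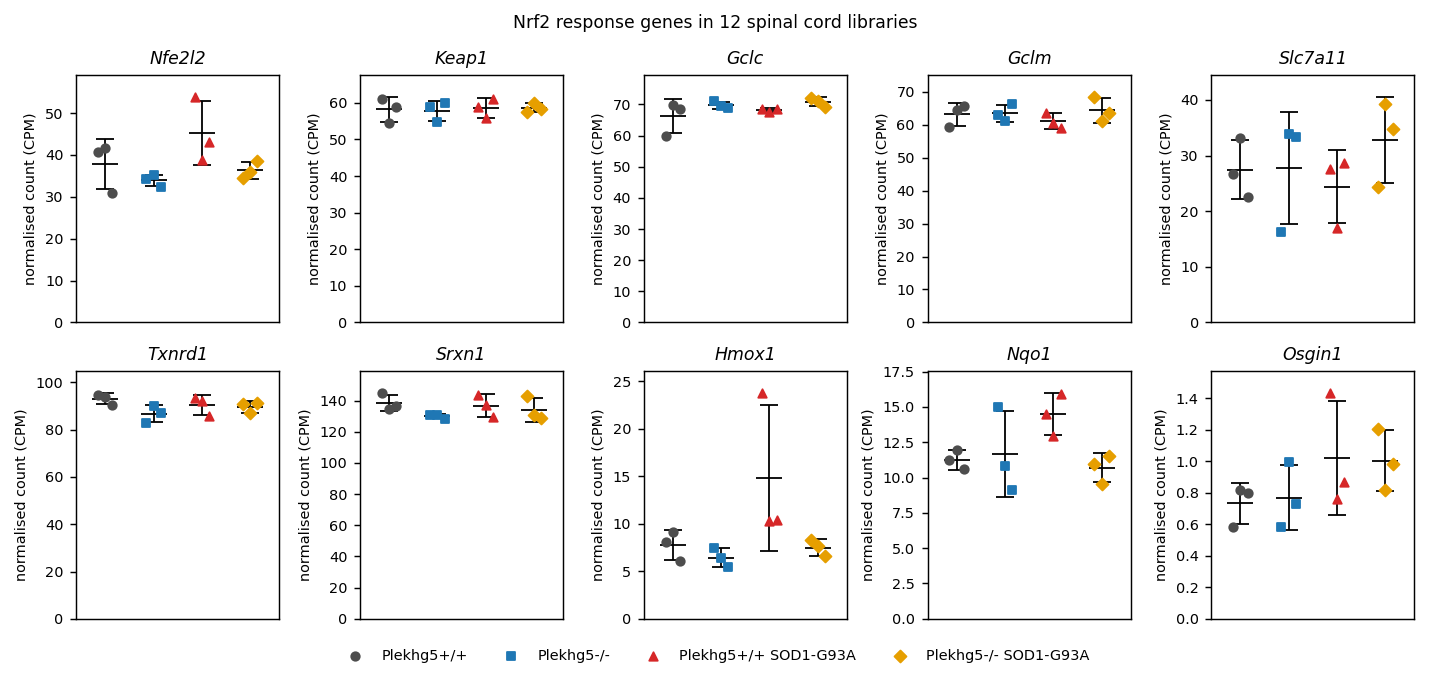
Normalised count (CPM, linear axis from 0) of the 10 genes in each of the 12 libraries, with 1 point per mouse and the mean ± SD of the 3 mice of each genotype as bars. Hmox1 in Plekhg5+/+ SOD1-G93A shows 1 point at 23.7 CPM and the other 2 at 10.3 and 10.4 CPM, all above the other genotypes, while Keap1, Gclc, Gclm, Txnrd1 and Srxn1 sit at nearly one level.

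In Plekhg5+/+ SOD1-G93A mice against Plekhg5+/+ mice, the heme oxygenase Hmox1 was 1.91-fold and the quinone reductase Nqo1 1.29-fold higher on average, with no overlap between the mice of the 2 genotypes, but neither passed the adjusted threshold. For Keap1, the glutamate-cysteine ligase genes Gclc and Gclm, and the thioredoxin branch with Txnrd1 and Srxn1, the 95% intervals of the fold change lay between 0.879 and 1.13. Of the 10 genes, 0 were called by edgeR, beside 2.47% of all genes tested. At an unadjusted p under 0.05 there were 2, both higher, beside 10.6% of all genes, and in the non-overlapping class there were also 2 higher, beside 11.6%. DESeq2 called 1, Hmox1, with and without its fold-change prior. Over all genes DESeq2 called 1190 with the prior and 1159 without it, where edgeR called 498. Over the 10 genes the log2 fold change had a median of 0.027, and over all genes tested of -0.00099. In bulk RNA, a change in the number of cells of a type and a change in RNA per cell cannot be told apart.

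In Plekhg5-/- SOD1-G93A mice against Plekhg5+/+ SOD1-G93A mice, Hmox1, Nqo1 and Nfe2l2 were lower in each mouse, and Hmox1 lay at 0.506 times its level with Plekhg5. Again 0 of the 10 genes were called by edgeR, beside 0.0347% of all genes tested. At an unadjusted p under 0.05 there were 3, all lower, beside 5.05% of all genes. DESeq2 called 1, Hmox1, with the fold-change prior that the study used and 0 without it. Over all genes it called 114 with the prior and 72 without it, where edgeR called 7. Groups did not overlap for 3 genes that were lower, beside 10% of all genes, and for 1, Gclc, that was higher, beside 9.48%. Its median over the 10 genes was -0.019 on the log2 scale, and -0.0097 over all genes. Both comparisons share the Plekhg5+/+ SOD1-G93A mice, so that a high value in one of those mice moves them in opposite directions.

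**Figure D2:**
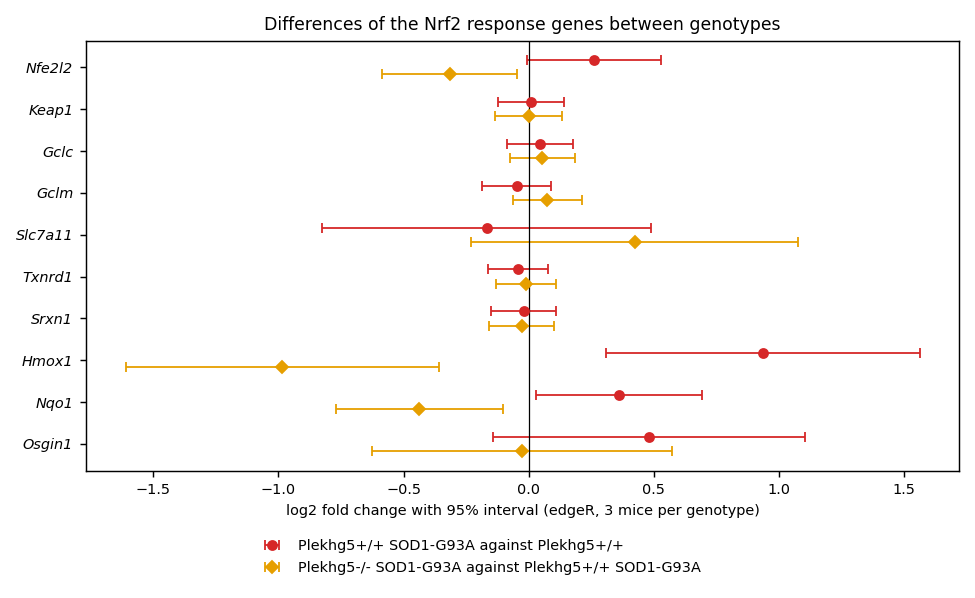
Log2 fold change of each of the 10 genes with its 95% interval (edgeR, 3 mice per genotype), for Plekhg5+/+ SOD1-G93A against Plekhg5+/+ in red and Plekhg5-/- SOD1-G93A against Plekhg5+/+ SOD1-G93A in orange. Hmox1 lies at 0.94 and -0.98 and Nqo1 at 0.36 and -0.44 with intervals off 0, whereas the intervals of Keap1, Gclc, Gclm, Txnrd1 and Srxn1 are narrow and include 0.

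Among the regulators, Nfe2l2 (gene 18024, chr2:75675513-75704663, minus strand, GRCm38.p6), which encodes Nrf2 itself, had 40.7, 41.7 and 30.9 CPM in the Plekhg5+/+ mice and 53.8, 38.8 and 43.0 CPM in the Plekhg5+/+ SOD1-G93A mice. It had 34.3, 35.1 and 32.4 CPM in Plekhg5-/- mice and 34.5, 35.9 and 38.6 CPM in Plekhg5-/- SOD1-G93A mice. Replicate 1 of Plekhg5+/+ SOD1-G93A was the highest of the 12 libraries, the Plekhg5+/+ SOD1-G93A and Plekhg5+/+ groups overlapped, and the lowest Plekhg5+/+ SOD1-G93A mouse lay just above the highest Plekhg5-/- SOD1-G93A mouse. The log2 fold change was 0.26 (SE 0.124, adjusted p = 0.293, edgeR with Benjamini-Hochberg) for SOD1-G93A with Plekhg5 against Plekhg5+/+ and -0.32 (SE 0.124, adjusted p = 0.525) for Plekhg5-/- SOD1-G93A against Plekhg5+/+ SOD1-G93A. Without replicate 1 of Plekhg5+/+ SOD1-G93A these values were 0.12 and -0.17, and without replicate 3 of Plekhg5+/+, its lowest, the first was also 0.12.

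Keap1 (gene 50868, chr9:21229730-21239332, minus strand), the repressor of Nrf2, was the steadiest of the regulators, with group means of 58.2 ± 3.36 CPM in Plekhg5+/+, 57.8 ± 2.75 CPM in Plekhg5-/-, 58.6 ± 2.701 CPM in Plekhg5+/+ SOD1-G93A and 58.6 ± 1.22 CPM in Plekhg5-/- SOD1-G93A (SD, n = 3 each). The 95% interval of its fold change ran from 0.917 to 1.104 in SOD1-G93A with Plekhg5 (adjusted p = 0.961, edgeR with Benjamini-Hochberg). Its log2 fold changes of 0.0093 in that comparison and 0.00062 for Plekhg5-/- SOD1-G93A against Plekhg5+/+ SOD1-G93A are so close to 0 that their sign turned under other settings.

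For the glutathione supply, Gclc (gene 14629, chr9:77754535-77794489, plus strand), the catalytic subunit of glutamate-cysteine ligase, the rate-limiting enzyme of glutathione synthesis, had 60.0, 70.0 and 68.6 CPM in Plekhg5+/+ and 68.6, 67.6 and 68.7 CPM in Plekhg5+/+ SOD1-G93A mice. In Plekhg5-/- it had 71.1, 69.5 and 68.8 CPM, and in Plekhg5-/- SOD1-G93A 72.2, 71.2 and 69.3 CPM. Apart from the low replicate 1 of Plekhg5+/+, all libraries lay within a narrow band, so that the separation of Plekhg5-/- SOD1-G93A from Plekhg5+/+ SOD1-G93A rests on small differences. The log2 fold changes were 0.045 (SE 0.0603) and 0.054 (SE 0.0602, adjusted p = 0.781, edgeR with Benjamini-Hochberg) in the first and the second of these comparisons, and the first turned to -0.021 at the lowest when a library was left out, that is without replicate 1 of Plekhg5+/+.

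Gclm (gene 14630, chr3:122245487-122267215, plus strand), the modifier subunit of the same ligase, lay between 59.1 and 68.4 CPM over the libraries, with means of 63.1 ± 3.44, 63.5 ± 2.60, 61.1 ± 2.34 and 64.4 ± 3.74 CPM (SD, n = 3) in Plekhg5+/+, Plekhg5-/-, Plekhg5+/+ SOD1-G93A and Plekhg5-/- SOD1-G93A. Its log2 fold change was -0.047 in SOD1-G93A with Plekhg5 and 0.075 for Plekhg5-/- SOD1-G93A against Plekhg5+/+ SOD1-G93A, and neither passed the test.

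Slc7a11 (chr3:50364936-50499087, minus strand), the light chain of the cystine-glutamate exchanger that brings in the cysteine for glutathione, varied strongly between mice of the same genotype. It had 26.7, 33.1 and 22.6 CPM in Plekhg5+/+, 16.2, 33.9 and 33.3 CPM in Plekhg5-/-, 27.6, 16.96 and 28.7 CPM in Plekhg5+/+ SOD1-G93A and 24.3, 39.4 and 34.8 CPM in Plekhg5-/- SOD1-G93A. All groups overlapped, and the coefficient of variation within a genotype was 19.3% to 36.1%. Its fold change of SOD1-G93A with Plekhg5 had an interval from 0.565 to 1.40, so differences within it were not detectable at this spread. The counts of Slc7a11 were fractions in 12 of 12 libraries, which means that some of its reads also matched other genes or places.

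Of the thioredoxin branch, Txnrd1 (chr10:82833951-82897724, plus strand), the cytosolic thioredoxin reductase, had 94.9, 93.8 and 90.6 CPM in Plekhg5+/+, 82.9, 90.1 and 87.2 CPM in Plekhg5-/-, 93.5, 91.9 and 85.7 CPM in Plekhg5+/+ SOD1-G93A and 90.9, 86.9 and 91.4 CPM in Plekhg5-/- SOD1-G93A. Srxn1 (chr2:152105524-152111376, plus strand), sulfiredoxin, which restores overoxidised peroxiredoxins, had 144.6, 134.8 and 136.8 CPM in Plekhg5+/+ and 130.9, 131.0 and 128.4 CPM in Plekhg5-/-. With the transgene it had 143.7, 137.3 and 129.5 CPM in Plekhg5+/+ and 143.1, 130.5 and 129.1 CPM in Plekhg5-/- mice. Both genes were lower in each Plekhg5-/- mouse than in each Plekhg5+/+ mouse without the transgene, and overlapped between all other groups compared.

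In SOD1-G93A with Plekhg5 the interval of the fold change ran from 0.893 to 1.06 for Txnrd1 and from 0.902 to 1.08 for Srxn1. For Plekhg5-/- SOD1-G93A against Plekhg5+/+ SOD1-G93A the log2 fold changes were -0.0098 and -0.028. In Plekhg5-/- against Plekhg5+/+ mice they were -0.10 (SE 0.0556, adjusted p = 0.956) for Txnrd1 and -0.093 (SE 0.0598, adjusted p = 0.976) for Srxn1 (edgeR with Benjamini-Hochberg), so the lower levels did not pass the test.

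Hmox1 (chr8:75093618-75100593, plus strand) encodes the inducible heme oxygenase, which cleaves heme to biliverdin, iron and carbon monoxide. It had 8.03, 9.13 and 6.06 CPM in Plekhg5+/+ mice and 23.7, 10.3 and 10.4 CPM in Plekhg5+/+ SOD1-G93A mice. In Plekhg5-/- mice it had 7.49, 6.36 and 5.49 CPM, and in Plekhg5-/- SOD1-G93A mice 8.30, 7.62 and 6.58 CPM. Each Plekhg5+/+ SOD1-G93A mouse lay above each of the other 9 mice, and replicate 1 lay above the other 2 of its group by more than their distance from the controls. Counts for Hmox1 were 174 to 763 per library, with no fractions.

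The log2 fold change of Hmox1 was 0.94 (SE 0.287, 95% interval 0.31 to 1.56) in Plekhg5+/+ SOD1-G93A against Plekhg5+/+, with an unadjusted p of 0.00691 and an adjusted p of 0.109 (edgeR with Benjamini-Hochberg). Of the genes tested, 96.8% had a lower log2 fold change. For Plekhg5-/- SOD1-G93A against Plekhg5+/+ SOD1-G93A it was -0.98 (SE 0.287, interval -1.61 to -0.36), with an unadjusted p of 0.00510 and an adjusted p of 0.422, and 0.814% of genes lay lower. DESeq2 gave adjusted p-values of 0.0123 with and 0.0208 without the fold-change prior in the first comparison, and of 0.0382 with and 0.0754 without it in the second, so the call depends on the tool.

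Without replicate 1 of Plekhg5+/+ SOD1-G93A, the log2 fold change of Hmox1 was 0.42 (adjusted p = 0.342) in the first and -0.47 (adjusted p = 0.776) in the second comparison (edgeR with Benjamini-Hochberg). Without replicate 2 of that group it was 1.12, and passed the test with an adjusted p of 0.0462. The size of the difference therefore rests on replicate 1. Leaving out the highest mouse of the higher group cannot make the groups overlap, so their separation was not tested by this.

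Nqo1 (chr8:107388225-107403205, minus strand), which reduces quinones with NADPH or NADH, had 11.3, 12.0 and 10.6 CPM in Plekhg5+/+ mice and 14.5, 12.97 and 15.9 CPM in Plekhg5+/+ SOD1-G93A mice. It had 15.01, 10.85 and 9.12 CPM in Plekhg5-/- mice and 10.95, 9.56 and 11.6 CPM in Plekhg5-/- SOD1-G93A mice. The Plekhg5+/+ SOD1-G93A mice lay above Plekhg5+/+ and above Plekhg5-/- SOD1-G93A mice, but replicate 1 of Plekhg5-/- lay among them. Here replicate 3, not replicate 1, was the highest of Plekhg5+/+ SOD1-G93A.

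The log2 fold change of Nqo1 was 0.36 (SE 0.153, adjusted p = 0.232, edgeR with Benjamini-Hochberg) in SOD1-G93A with Plekhg5 and -0.44 (SE 0.153, adjusted p = 0.517) for Plekhg5-/- SOD1-G93A against Plekhg5+/+ SOD1-G93A. When each library was left out in turn these values ran from 0.29 to 0.42 and from -0.50 to -0.36, and neither comparison was called. Without replicate 1 of Plekhg5+/+ SOD1-G93A they were 0.36 and -0.44.

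Osgin1 (chr8:119425882-119446257, plus strand), a growth inhibitor induced by oxidative stress, had only 20 to 46 counts per library. It had 0.580, 0.818 and 0.796 CPM in Plekhg5+/+, 0.585, 0.994 and 0.726 CPM in Plekhg5-/-, 1.43, 0.759 and 0.870 CPM in Plekhg5+/+ SOD1-G93A and 1.20, 0.820 and 0.984 CPM in Plekhg5-/- SOD1-G93A. The groups overlapped in each of the 4 comparisons of 2 genotypes. Averaged over both Plekhg5 genotypes, its log2 fold change with the transgene was 0.43 (SE 0.202, adjusted p = 0.347, edgeR with Benjamini-Hochberg), and 0.27 (adjusted p = 0.676) without replicate 1 of Plekhg5+/+ SOD1-G93A.

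Without the transgene, loss of Plekhg5 was accompanied by small differences of the 10 genes, with log2 fold changes from -0.26 for Hmox1 to 0.076 and adjusted p-values from 0.956 up (edgeR with Benjamini-Hochberg). By edgeR 0 were called, beside 0.0298% of all genes, 0 had an unadjusted p under 0.05, beside 5.32%, and DESeq2 called 0. Groups did not overlap for 2 genes that were lower, Txnrd1 and Srxn1, beside 3.99% of all genes.

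With Plekhg5 absent, the transgene gave log2 fold changes from -0.13 for Nqo1 to 0.38 for Osgin1, with 0.21 (SE 0.295, interval -0.43 to 0.86) for Hmox1 and 0.099 for Nfe2l2. Again 0 of the 10 were called by edgeR, beside 0.00496% of all genes, 0 had an unadjusted p under 0.05, beside 5.38%, DESeq2 called 0, and the groups overlapped for every gene of the 10, beside 12.5% of all genes whose groups did not overlap.

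Whether the transgene effect differed with Plekhg5 was tested as an interaction. The difference in log2 fold change was -0.72 (SE 0.411, interval -1.62 to 0.17, adjusted p = 0.601) for Hmox1, -0.49 (SE 0.217, adjusted p = 0.528) for Nqo1 and -0.16 (SE 0.176, adjusted p = 0.759) for Nfe2l2 (edgeR with Benjamini-Hochberg). Of the 10 genes 0 were called by edgeR, beside 0% of all genes. DESeq2 also called 0 of the 10, beside 112 of all genes with the prior and 95 without it. By edgeR 1, Nqo1, had an unadjusted p under 0.05 and was lower, beside 5.18% of all genes. Without replicate 1 of Plekhg5+/+ SOD1-G93A the difference was -0.21 (adjusted p = 0.795) for Hmox1 and -0.017 (adjusted p = 0.982) for Nfe2l2. It was -0.020 (adjusted p = 0.976) for Nfe2l2 without replicate 3 of Plekhg5+/+, -0.11 (adjusted p = 0.876) without replicate 1 of Plekhg5-/- SOD1-G93A, and -0.26 (adjusted p = 0.824) for Nqo1 without replicate 1 of Plekhg5-/- (edgeR with Benjamini-Hochberg). Other libraries left out made the difference larger. Over each library left out in turn it ran from -0.92 to -0.21 for Hmox1, -0.64 to -0.26 for Nqo1 and -0.24 to -0.017 for Nfe2l2. The lowest adjusted p of these fits was 0.329, for Nqo1 (edgeR with Benjamini-Hochberg). Thus no difference between the effects with and without Plekhg5 was shown for any of these genes. Averaged over the Plekhg5 genotypes, Hmox1 was higher with the transgene by 0.58 on the log2 scale (SE 0.206, adjusted p = 0.202), and by 0.32 (adjusted p = 0.298) without replicate 1 of Plekhg5+/+ SOD1-G93A (edgeR with Benjamini-Hochberg). In that comparison 0 of the 10 were called by edgeR or DESeq2, beside 1.22% of all genes by edgeR, with 1, Hmox1, higher at an unadjusted p under 0.05, beside 9.39%.

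Besides the 10 genes, 50 others of the pathway were read out from the same fit, and 50 of 50 had been tested. In Plekhg5+/+ SOD1-G93A against Plekhg5+/+, 2 of these 50 rose and 0 fell by the adjusted test (edgeR), beside 2.09% and 0.377% of all genes; 10 were higher and 1 lower at an unadjusted p under 0.05, beside 10.6% and 7.51%, and 37 of 50 had a log2 fold change above 0, beside 49.7% of all genes. The median was 0.085. By group, the median was 0.15 for 6 genes of NADPH supply, 0.13 for 7 of heme and iron, 0.11 for 8 of thioredoxin and peroxiredoxins, 0.086 for 9 of detoxification and export, 0.061 for 12 of glutathione use and transfer, and -0.034 for 8 partners and repressors.

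The genes that rose were Ftl1, of the heme and iron group, and Prdx6, of the thioredoxin and peroxiredoxin group. Ftl1, the ferritin light chain that stores iron, had 205.9, 167.2 and 162.3 CPM in Plekhg5+/+ and 324.5, 225.3 and 246.6 CPM in Plekhg5+/+ SOD1-G93A mice, with 198.5 to 209.9 CPM in Plekhg5-/- SOD1-G93A. Prdx6, a peroxiredoxin that reduces lipid peroxides with glutathione, had 319.5, 265.1 and 283.8 CPM and 605.4, 369.4 and 427.5 CPM in these groups, with 322.7 to 331.6 CPM in Plekhg5-/- SOD1-G93A. As with Hmox1, replicate 1 of Plekhg5+/+ SOD1-G93A was the highest library for both.

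The log2 fold change in Plekhg5+/+ SOD1-G93A against Plekhg5+/+ was 0.57 (SE 0.125, adjusted p = 0.0351) for Ftl1 and 0.69 (SE 0.160, adjusted p = 0.0458) for Prdx6 (edgeR with Benjamini-Hochberg). Without replicate 1 of Plekhg5+/+ SOD1-G93A they were 0.40 (adjusted p = 0.108) and 0.46 (adjusted p = 0.126), so both calls were lost. Left out in turn, any of the 3 Plekhg5+/+ mice, Plekhg5-/- replicate 2 and Plekhg5-/- SOD1-G93A replicate 2 also ended both calls, with 0.49 to 0.69 and adjusted p-values of 0.0561 to 0.162 for Ftl1. The call of Prdx6 was in addition lost without replicate 3 of Plekhg5+/+ SOD1-G93A and without replicates 1 and 3 of Plekhg5-/- SOD1-G93A, with adjusted p-values of 0.0513 to 0.0576. With only the 2 genotypes in the fit both calls were lost, at adjusted p-values of 0.117 for Ftl1 and 0.112 for Prdx6, and with no filter on low counts that of Prdx6 was lost, at 0.0936. The counts of Ftl1 were fractions in 12 libraries and those of Prdx6 in 6, so reads of related sequences may be split among them.

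In the other groups, the gene with the largest difference was not called. Akr1b8, an aldo-keto reductase, differed by 0.92 (SE 0.239, adjusted p = 0.0637), Gpx1, the cytosolic glutathione peroxidase, by 0.44 (SE 0.116, adjusted p = 0.0696), Idh1, which makes NADPH, by 0.18 (adjusted p = 0.244) and Mafg, a small Maf partner of Nrf2, by -0.25 (SE 0.101, adjusted p = 0.201) on the log2 scale (edgeR with Benjamini-Hochberg). Akr1b8 and Gpx1 were called by DESeq2, with adjusted p-values of 0.0151 and 0.0163 with the prior.

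In Plekhg5-/- SOD1-G93A against Plekhg5+/+ SOD1-G93A, 0 of the 50 were called by edgeR or DESeq2, while 8 were lower and 0 higher at an unadjusted p under 0.05, beside 5.05% and 3.59% of all genes. The log2 fold change was above 0 in 9 of 50, beside 47.5% of all genes, with a median of -0.11, and in 0 of 8 genes of thioredoxin and peroxiredoxins and 0 of 6 of NADPH supply. It was -0.38 (SE 0.125, adjusted p = 0.468) for Ftl1 and -0.52 (SE 0.160, adjusted p = 0.435) for Prdx6. This comparison and that with Plekhg5+/+ share the Plekhg5+/+ SOD1-G93A mice, so a high value in any of these mice moves the log2 fold changes in opposite directions. In the other comparisons 0 of the 50 were called by edgeR. There, 1 was lower in Plekhg5-/- against Plekhg5+/+ and 1 was lower in Plekhg5-/- SOD1-G93A against Plekhg5-/- at an unadjusted p under 0.05, beside 5.32% and 5.38% of all genes in either direction, and 6 were lower and 1 higher in the interaction, beside 5.18% and 3.87% of all genes, with 0 called by DESeq2 in all 3. Averaged over the Plekhg5 genotypes 5 were higher at an unadjusted p under 0.05, beside 9.39% of all genes, and DESeq2 called 2 of the 50, beside 821 of all genes with the prior and 811 without it.

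**Figure D3:**
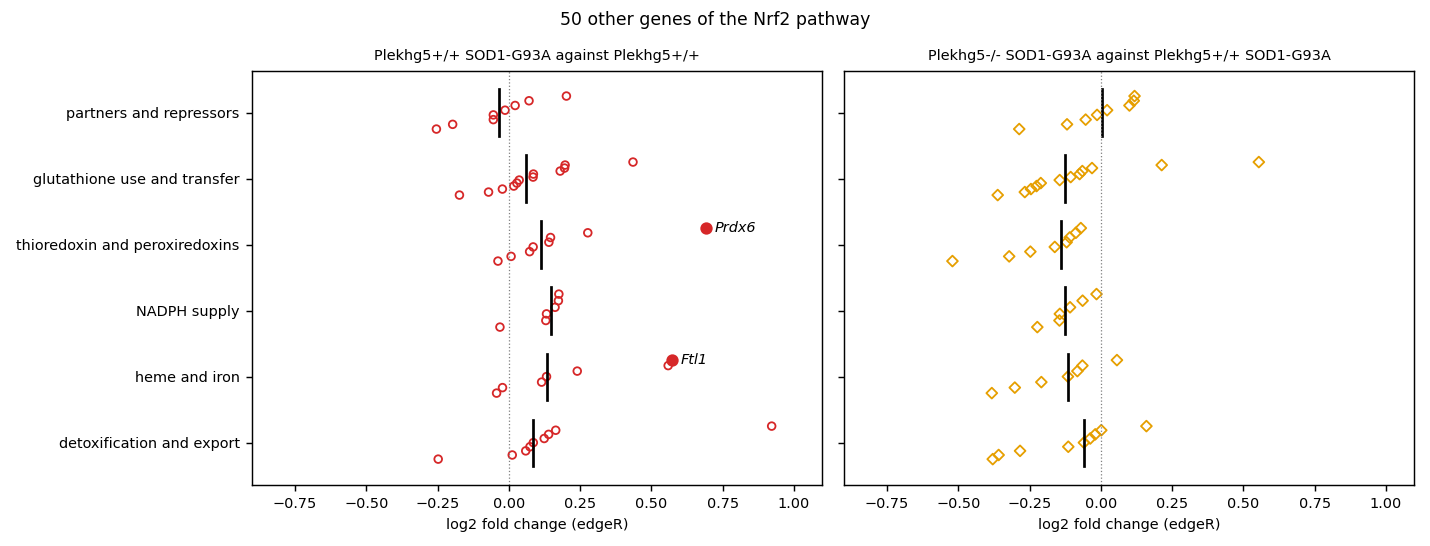
Log2 fold change (edgeR) of 50 other genes of the pathway by group, 1 point per gene, for Plekhg5+/+ SOD1-G93A against Plekhg5+/+ at the left and Plekhg5-/- SOD1-G93A against Plekhg5+/+ SOD1-G93A at the right, with bars at the group medians and filled points for genes past an adjusted p of 0.05. Prdx6 and Ftl1 are the filled points at the left, at 0.69 and 0.57, and the right panel has none. Most points lie above 0 at the left and below 0 at the right, and both panels share the Plekhg5+/+ SOD1-G93A mice.

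Markers of microglia were, like Hmox1, highest in Plekhg5+/+ SOD1-G93A mice. In Plekhg5-/- against Plekhg5+/+ mice the markers had a median log2 fold change of 0.27, and Hmox1 had -0.26. For Plekhg5-/- SOD1-G93A against Plekhg5-/- these values were 0.27 and 0.21. Neither Hmox1 nor any of the markers was called in these comparisons (edgeR). The summed level of 13 microglial markers was 598.1, 524.2 and 607.8 CPM in Plekhg5+/+, 794.3, 679.5 and 576.4 CPM in Plekhg5-/-, 1921, 1017 and 1083 CPM in Plekhg5+/+ SOD1-G93A and 840.5, 810.1 and 749.9 CPM in Plekhg5-/- SOD1-G93A. Of these 13, 12 rose in Plekhg5+/+ SOD1-G93A against Plekhg5+/+ with a median log2 fold change of 1.36, and 0 were called for Plekhg5-/- SOD1-G93A against Plekhg5+/+ SOD1-G93A, with a median of -0.83. However, 0 of the 13 were called without replicate 1 or without replicate 2 of Plekhg5+/+, and 0 with only the 2 genotypes in the fit. Without replicate 1 of Plekhg5+/+ SOD1-G93A 11 were called, with a median of 0.90, and 8 with no filter on low counts. The marker sum was thus highest in the same library as Hmox1, Nfe2l2, Ftl1 and Prdx6, and its part in these results was not tested.

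**Figure D4:**
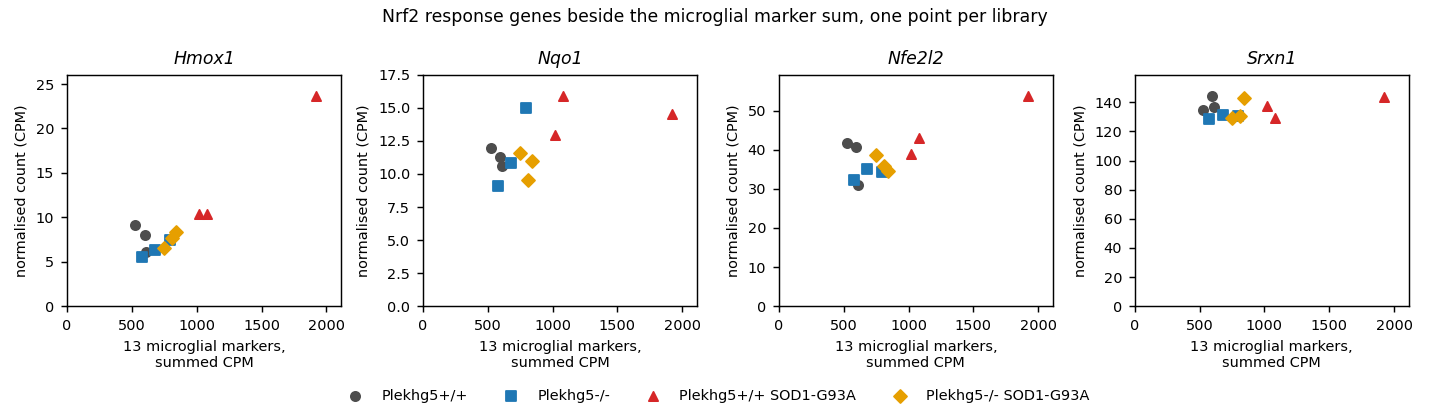
Normalised count (CPM) of Hmox1, Nqo1, Nfe2l2 and Srxn1 against the summed CPM of 13 microglial markers, 1 point per library, both axes linear from 0. Hmox1 and the marker sum are both highest in Plekhg5+/+ SOD1-G93A replicate 1 (23.7 and 1921 CPM), while Nqo1 is highest in a library with 1083 CPM of the markers and Srxn1 stays between 128.4 and 144.6 CPM over the whole range.

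Of 14 lists of cell type markers, 4 held a marker called in Plekhg5+/+ SOD1-G93A against Plekhg5+/+, all higher: 12 of 13 for microglia, 2 of 9 for astrocytes, 1 of 8 for oligodendrocytes and 1 of 6 for border macrophages and monocytes. Without replicate 1 or replicate 2 of Plekhg5+/+, or with only the 2 genotypes in the fit, 0 of these lists held a call. The other 10 lists held 0, and 0 markers of any list were called in the other 3 comparisons of genotypes (edgeR). Astrocyte markers summed to 7587 to 7868 CPM in Plekhg5+/+, 7517 to 9133 CPM in Plekhg5-/-, 9244 to 12260 CPM in Plekhg5+/+ SOD1-G93A and 8460 to 8761 CPM in Plekhg5-/- SOD1-G93A. Red cell transcripts, which mark blood in the tissue, summed to 542.6 to 950.1, 439.6 to 531.1, 735.7 to 1578 and 440.5 to 740.3 CPM in the same order. They had 933.3, 735.7 and 1578 CPM in replicates 1, 2 and 3 of Plekhg5+/+ SOD1-G93A, and the part of blood in the Hmox1 values was not tested. No marker of any list was at 0 in every library of a genotype, and neuronal and motoneuron markers, which this tissue should hold, were present in all libraries.

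The summed level of neuronal markers was lower in Plekhg5+/+ SOD1-G93A than in Plekhg5+/+ without overlap, at 7895 to 7989 CPM in Plekhg5+/+, 7374 to 7825 CPM in Plekhg5-/-, 5995 to 7323 CPM in Plekhg5+/+ SOD1-G93A and 6655 to 7689 CPM in Plekhg5-/- SOD1-G93A. That of motoneuron markers was 275.0 to 282.7, 272.1 to 283.6, 201.4 to 262.7 and 224.9 to 306.2 CPM in the same order, with the same separation, and T cell markers, at 2.23 to 2.49 CPM in Plekhg5+/+, were higher in Plekhg5+/+ SOD1-G93A at 3.30 to 3.95 CPM. In Plekhg5-/- SOD1-G93A the sums were above those of Plekhg5+/+ SOD1-G93A without overlap for Schwann cells, at 426.4 to 607.5 against 193.0 to 317.5 CPM, and for fibroblasts, at 180.2 to 252.3 against 121.3 to 174.9 CPM. The same held for endothelium, at 232.9 to 275.7 against 167.7 to 209.1 CPM, and for pericytes and smooth muscle, at 139.9 to 161.0 against 102.7 to 135.3 CPM. Neuronal sums of Plekhg5-/- mice also lay below those of Plekhg5+/+ mice without overlap. Among single genes, 11.6% were higher without overlap in Plekhg5+/+ SOD1-G93A against Plekhg5+/+. For Plekhg5-/- SOD1-G93A against Plekhg5+/+ SOD1-G93A this share was 9.48%. The sums themselves were not tested, nor was the part of the cells of these lists in the results.

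The genes whose log2 CPM followed Hmox1 most closely over the 12 libraries, among 16608 genes, were A630001G21Rik (Pearson r = 0.981), Slc22a4 (0.959), Ccl6 (0.955), Glipr2 (0.954) and Glmp (0.946). For Nfe2l2 they were Cebpd (0.969), Mcl1 (0.948), Szrd1 (0.939), Rap1b (0.914) and Ang (0.914), and for Srxn1 Rcc2 (0.926), Copb1 (0.853), Gla (0.829), Pim1 (0.827) and Lrrc59 (0.819). These lists of 5 shared no gene, which among 16608 genes does not show that the patterns of Hmox1, Nfe2l2 and Srxn1 differ. Among the 10 genes, r was highest for Nfe2l2 with Hmox1 (0.897), followed by Txnrd1 with Srxn1 (0.685), Hmox1 with Nqo1 (0.634) and Nfe2l2 with Nqo1 (0.602). It was 0.514 for Gclc with Gclm, the subunits of the same ligase. These correlations are a description of 12 libraries of 4 genotypes, in which all genes of a library share its depth and its mixture of cells. Replicate 1 of Plekhg5+/+ SOD1-G93A was the highest library for both Hmox1 and Nfe2l2. Their correlations may rest on it, and none is given without it.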

How the data were processed

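According to the study's methods, the authors enriched poly-A RNA, sequenced stranded libraries single-end, trimmed reads with Cutadapt 2.4, mapped them with STAR 2.7.2b to GRCm38.p6 plus human SOD1 cDNA, and counted them by strand on RefSeq exons with featureCounts 1.6.4, splitting multi-mapping and overlapping reads into fractions. The deposited values are therefore expected counts (estimated counts that need not be whole), per gene, without normalization. Exon lengths per gene, which the authors deposited beside them in another column, were used for levels per kilobase. All 12 columns were matched to a mouse by genotype and number, and 0 per-sample columns were left out.

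Counts were rounded, filtered with filterByExpr at default settings (20155 of 45906 genes kept), normalized by TMM and fitted with edgeR 4.0.16 (R 4.3.3), robust quasi-likelihood, the 4 genotypes in one fit. Standard errors are the log2 fold change divided by the root of F. P-values were adjusted by Benjamini-Hochberg over all genes tested, with a threshold of 0.05. The mice are separate animals. Depth was 30415643 to 38743628 counts per library. Alternatives were DESeq2 1.42.0 with and without its fold-change prior, its size factors in edgeR, other filters, the replicate number as a block, Y-linked transcripts as covariate, 2 genotypes per fit, and each library left out. The fits were tested on simulated data.

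The genes, the list of 50 others and the cell type markers were chosen with earlier results of these data known. Of the 50, those past the threshold and the largest difference per group (mean of at least 1 CPM) were named, and the 5 most correlated genes were named for Hmox1, Srxn1 and Nfe2l2. Promoter windows are RefSeq's for GRCm38.p6. Plots were drawn with matplotlib 3.10.9.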

Additional observations from a re-analysis of the deposited data

How the results depend on the processing

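For the 10 genes, the count of calls in Plekhg5+/+ SOD1-G93A against Plekhg5+/+ moved from 0 to 1 (Hmox1) with DESeq2, with and without its prior, and ran from 0 to 1 when each library was left out; for Plekhg5-/- SOD1-G93A against Plekhg5+/+ SOD1-G93A it moved from 0 to 1 with DESeq2 and its prior. Of the 50 other genes, 2 were called in the first of these, 4 with DESeq2 with and without the prior, 0 with only the 2 genotypes in the fit, and 0 to 4 when each library was left out (0 without Plekhg5+/+ replicates 1 or 2, Plekhg5-/- replicate 2, Plekhg5-/- SOD1-G93A replicate 2 or Plekhg5+/+ SOD1-G93A replicate 1; 4 without its replicate 2). Averaged over the Plekhg5 genotypes the 50 had 0 calls, 2 with DESeq2 with and without the prior, 1 with Y-linked transcripts as covariate, and 0 to 2 when each library was left out.

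Over all genes, the count called in Plekhg5+/+ SOD1-G93A against Plekhg5+/+ was 498, and 1190 with DESeq2 and its prior, 1159 without the prior and 3 with only the 2 genotypes in the fit. For Plekhg5-/- SOD1-G93A against Plekhg5+/+ SOD1-G93A it was 7, and 114, 72 and 11 in the same order. Plekhg5-/- against Plekhg5+/+ had 6, and 32 and 34 with DESeq2. Plekhg5-/- SOD1-G93A against Plekhg5-/- had 1, and 41 and 45 with DESeq2, 0 with at least 10 counts in every library and 20 with 2 genotypes. The interaction had 0, and 112 and 95 with DESeq2 and 1 with no filter on low counts. The averaged comparison had 245, and 821 and 811 with DESeq2 and 412 with the covariate. When each library was left out, these counts ran from 2 to 771, 4 to 8, 5 to 59, 1 to 9, 0 to 40 and 10 to 560. In the first comparison they were lowest without Plekhg5+/+ replicates 1 and 2 (4 and 2), and the others that moved it by over 1.5 times were Plekhg5-/- replicate 2 (323), Plekhg5-/- SOD1-G93A replicate 2 (313), and Plekhg5+/+ SOD1-G93A replicates 1 (223) and 2 (771). The cause was not tested.

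The replicate numbers name different mice. Of 18 same-numbered pairs of libraries, 5 had deviations correlated over 0.1 (range -0.164 to 0.318), and 7 of 12 libraries correlated best with their own number, so the numbers were not taken to pair the mice. With the replicate number as a block, 0 of the 10 genes were called in any comparison, Hmox1 had a log2 fold change of 0.88 (adjusted p = 0.0506, edgeR) in the first comparison and -0.92 (adjusted p = 0.204) in the second, 4 of the 50 other genes were called in the first and 2 in the averaged comparison, and 631, 8, 8, 1, 0 and 417 of all genes were called in the 6 comparisons.

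Of 972 recomputed values of single genes, 901 kept their sign and their side of the threshold, 28 turned in sign, of which 0 had passed the threshold, 25 passed it only under the alternative and 18 only in the reported fit. Keap1 turned in Plekhg5+/+ SOD1-G93A against Plekhg5+/+ to -4.23e-06 and -3.86e-06 with DESeq2 with and without the prior, -0.00018 with no filter and -0.0023 with 2 genotypes, and in Plekhg5-/- SOD1-G93A against Plekhg5+/+ SOD1-G93A to -0.0029, -0.0023 and -0.0016 with no filter, at least 10 counts and 2 genotypes. Osgin1 turned to 0.022 in the second of these with the covariate. When each library was left out, values with a turn ran in the first comparison from -0.036 to 0.046 for Keap1, -0.021 to 0.086 for Gclc, -0.30 to 0.019 for Slc7a11 and -0.057 to 0.018 for Srxn1. In the second they ran from -0.023 to 0.032 for Keap1, -0.047 to 0.015 for Txnrd1, -0.066 to 0.0088 for Srxn1 and -0.18 to 0.29 for Osgin1. For Nqo1 they ran from -0.17 to 0.20 in Plekhg5-/- against Plekhg5+/+ and from -0.27 to 0.092 in Plekhg5-/- SOD1-G93A against Plekhg5-/-. With 3 mice per genotype, the 95% intervals of Hmox1, Slc7a11 and Osgin1 span more than 1.0 on the log2 scale.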
